A study of Homo sapiens with 6 samples.

Results

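The genes described here encode the phosphoinositide 3-kinases (PI3K) and the signalling chain that runs from them through AKT to mTOR, together with AMPK and its activator LKB1. They were taken from a list of 39 gene symbols, and every probe set whose platform annotation names one of them was included. Of the listed genes, 35 were found, on 68 of the 22215 probe sets tested; PIK3CA, PIK3R2, RPTOR and RICTOR were not analysed here. Expression was compared between 3 arrays of parental NCI-H1975 cells, a line from a human lung cancer of the non-small cell type, and 3 arrays of WZR6. WZR6 is 1 clone picked from NCI-H1975 cells that had been taken through increasing amounts of the EGFR kinase inhibitor WZ4002, and it is labelled WZ4002 resistant, whereas the parental cells are labelled sensitive. Both groups grew exponentially in RPMI with 5% serum, and the sources used here do not say whether they were harvested with drug present. A single clone cannot separate what came with resistance from what distinguishes that clone. Nothing in the labels says that the samples of a group were separate cultures, so p-values measure the spread between these samples, which may be technical. The series title places the comparison in the question of how ERK signalling makes cells resistant to EGFR kinase inhibitors.

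PI3K is recruited to activated receptors by its regulatory subunits, and its catalytic subunits phosphorylate the membrane lipid PIP2 to PIP3. PIP3 brings AKT to the membrane, where PDPK1 activates it; lipid phosphatases remove the signal, and AKT restrains the TSC complex and FOXO transcription factors. With TSC restrained, RHEB switches on mTOR complex 1, which phosphorylates the S6 kinases and the translation repressor 4E-BP1, while AMPK, a sensor of low energy, opposes it. In EGFR-mutant lung cancer this chain is one of the routes by which the receptor sustains growth and survival. Arrays measure transcripts, so none of the values below is a measure of kinase activity.

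On the arrays, the epithelial cytokeratin gene KRT18 had means of 14.14 in parental cells and 14.02 in WZR6, in log2 intensity, and was not called, while the other 7 of 8 epithelial markers fell, EPCAM from 12.43 to 6.17. The pan-leukocyte gene PTPRC had means of 4.20 and 4.17, below 5.27, the lower quartile of all values. The summed intensity of 7 leukocyte markers lay between 593 and 653 on parental arrays and between 357 and 391 on WZR6 arrays, with 3 of the 7 below that quartile in both groups, and 2 of them, ITGB2 and CD14, fell. Of 9 fibroblast and endothelial markers 2 rose and 2 fell, COL1A1 by 3 on the log2 scale. Of 3 lung lineage markers NKX2-1 fell by 2.14, while SFTPC and SFTPB differed by 0.01 and 0.00 and were not called. The part of these marker changes in the results below was not tested. In RNA from whole cultures, fewer cells of a type and less RNA per cell cannot be told apart.

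The pathway split between increases and decreases. INPP4B, PIK3CD, FOXO1, PRKAB2, MTOR, PRKAG1 and EIF4EBP1 rose by 0.5 log2 or more in WZR6, and the S6 kinase genes RPS6KB1 and RPS6KB2 and the kinase gene AKT1 fell by as much. Each gene was read from its brightest own probe set (its main probe set), and a call is an adjusted p under 0.05 in limma over all probe sets. On this basis 14 of 35 genes rose (23.3% of all 11963 genes did), 6 fell (22.7% of all genes) and 15 were not called. The 20 called members are 57.1% of the 35, beside 46.0% of all genes. Those genes include more dim ones: 2530 of 11963 had a group mean below the lower quartile, against 1 of 35 members. In each range of brightness, given below, member probe sets were called less often than all probe sets. A difference of at least 0.5 log2 with a call was seen for 10 members, beside 17.8% of all genes, and INPP4B was the 1 member past 2-fold (4.82% of all genes). The median difference was 0.11 over the members and 0.02 over all genes, and the groups did not overlap for 24 of 35 members (56.3% of all genes). Differences over the 35 members ran from -0.81 for RPS6KB1 to 1.02 for INPP4B.

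**Figure D1:**
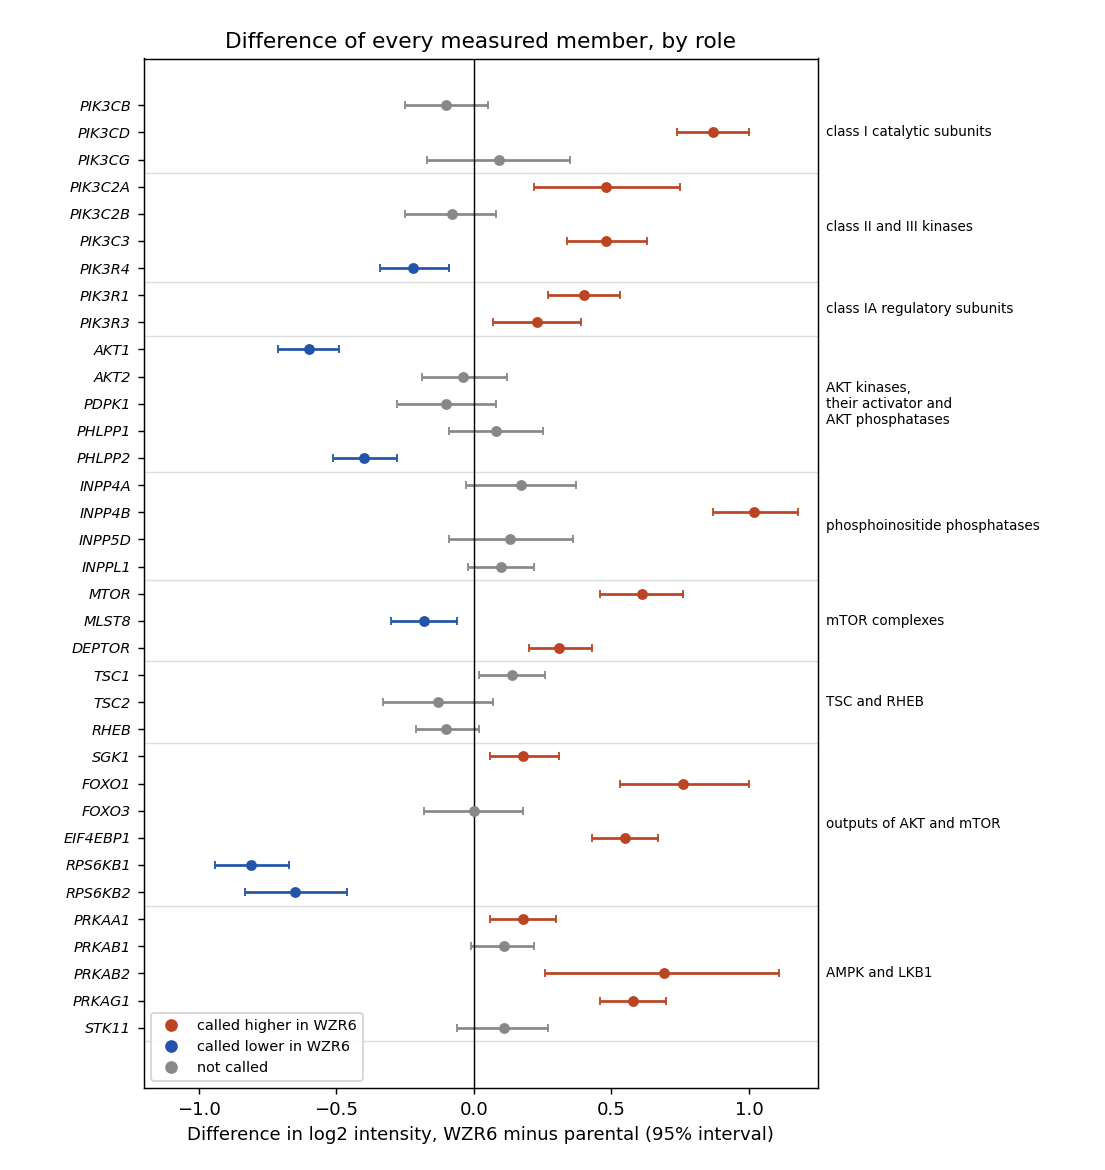
Difference in log2 intensity between WZR6 and parental cells (x axis, WZR6 minus parental) for the main probe set of each of the 35 measured genes, grouped by role; points are differences and bars 95% intervals of the moderated fit (n = 3 arrays per group). The 14 genes called higher and the 6 called lower are coloured, and the changes run from -0.81 for RPS6KB1 to 1.02 for INPP4B.

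The stretches of DNA before the start sites of the 5 genes below are shown because these genes carry the main changes: MTOR rose while both S6 kinase genes downstream of it fell, and INPP4B and FOXO1 were among the largest increases. Each is the 250 bases upstream of 1 RefSeq start of the gene in GRCh38.p14, written 5′ to 3′ on the strand of the gene. Over all windows this start lay within 1 base of the gene's own 5′ end for 89.6% on the plus strand and 88.0% on the minus strand. A window therefore need not lie at the outermost start of its gene. Capitals mark matches, on either strand, to 8 motifs. They are the E-box, spelled CACGTG, the CRE, spelled TGACGTCA, the AP-1 site, spelled TGANTCA, and the ETS site, spelled CCGGAAGT. The others are the FOXO site, spelled TGTTTAC, the GC box, spelled GGGCGG, the CCAAT box, spelled by its name, and a core of the NRF1 site, spelled GCGCATG. The last was added after the RPS6KB1 sequence had been seen. No capital lies in matches of 2 different motifs in these windows.
RPS6KB1 promoter, GRCh38.p14 chr17:59892871-59893120, plus strand: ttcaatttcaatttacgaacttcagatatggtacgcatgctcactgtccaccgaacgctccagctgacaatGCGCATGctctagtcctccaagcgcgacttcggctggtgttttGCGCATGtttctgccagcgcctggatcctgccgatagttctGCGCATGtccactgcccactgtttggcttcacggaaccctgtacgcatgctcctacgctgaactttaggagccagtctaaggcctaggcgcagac
RPS6KB2 promoter, GRCh38.p14 chr11:67428244-67428493, plus strand: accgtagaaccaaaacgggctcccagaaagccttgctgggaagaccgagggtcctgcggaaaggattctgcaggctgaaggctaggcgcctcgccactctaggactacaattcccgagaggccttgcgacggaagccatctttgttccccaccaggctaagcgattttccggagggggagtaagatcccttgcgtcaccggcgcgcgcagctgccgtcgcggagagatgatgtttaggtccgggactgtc
MTOR promoter, GRCh38.p14 chr1:11262552-11262801, minus strand: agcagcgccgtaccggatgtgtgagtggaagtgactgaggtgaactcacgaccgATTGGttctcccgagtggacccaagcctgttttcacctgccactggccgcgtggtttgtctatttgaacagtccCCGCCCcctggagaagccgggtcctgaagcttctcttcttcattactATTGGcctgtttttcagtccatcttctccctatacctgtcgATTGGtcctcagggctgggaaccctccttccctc
INPP4B promoter, GRCh38.p14 chr4:142405860-142406109, minus strand: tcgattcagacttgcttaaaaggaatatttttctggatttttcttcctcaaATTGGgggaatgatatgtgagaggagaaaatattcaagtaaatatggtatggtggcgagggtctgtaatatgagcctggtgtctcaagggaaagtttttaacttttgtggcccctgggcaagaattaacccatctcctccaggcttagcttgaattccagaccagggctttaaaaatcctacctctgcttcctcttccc
FOXO1 promoter, GRCh38.p14 chr13:40666642-40666891, minus strand: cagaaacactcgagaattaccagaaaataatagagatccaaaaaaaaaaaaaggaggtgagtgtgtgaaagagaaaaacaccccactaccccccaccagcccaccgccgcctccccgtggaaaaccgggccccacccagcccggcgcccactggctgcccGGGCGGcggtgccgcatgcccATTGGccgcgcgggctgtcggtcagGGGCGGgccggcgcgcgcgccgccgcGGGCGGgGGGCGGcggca

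In these windows RPS6KB1 held GCGCATG 3 times and no GC box, and RPS6KB2 held none of the motifs. MTOR held 1 GC box and 3 CCAAT boxes, FOXO1 4 GC boxes and 1 CCAAT box, and INPP4B, in an AT-rich window with 42.0% G and C, 1 CCAAT box. Windows were found for 32 of the 35 measured genes; those of DEPTOR, EIF4EBP1 and MLST8 were not used here. A GC box was present for 10 of 12 members that rose, 1 of 5 that fell, AKT1, and 11 of 15 that were not called, beside 42.3% of all 27305 promoter windows. The members' windows were richer in G and C, with a median of 64.4% against 58.0% in all windows. CCAAT was present for 11 of 32 members (33.0% of all windows), CCGGAAGT for PIK3C2A, PIK3C3 and TSC2 (3.64% of all), GCGCATG for PIK3C3, PHLPP1, RPS6KB1 and PRKAA1 (3.96% of all) and CACGTG for TSC2 alone (6.49% of all). The CRE, AP-1 and FOXO motifs were found in 0 of the 32 windows, beside 1.77%, 6.60% and 2.98% of all. A match of letters is a description and shows no binding.

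Among the class I catalytic subunits, which make PIP3, PIK3CD rose and the others measured were not called. PIK3CD encodes p110 delta, best known from leukocytes. Its log2 intensity was 7.81, 7.94 and 7.83 on the parental arrays and 8.76, 8.71 and 8.72 on the WZR6 arrays. Every WZR6 array lay above every parental array, and the difference of 0.87 ± 0.05 (SE, n = 3 per group) is 1.83-fold (95% interval 1.67 to 2.00, adjusted p = 3.10e-05). A second PIK3CD probe set, at 4.69 to 5.08 on all arrays, differed by -0.01, and the mean of both probe sets by 0.43. PIK3CB, which encodes the widely expressed p110 beta, differed by -0.10 (95% interval -0.25 to 0.05). PIK3CG, the leukocyte p110 gamma, had means of 4.23 and 4.32, below the lower quartile in both groups, and differed by 0.09 (-0.17 to 0.35).

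The regulatory subunits of class IA, which stabilise the catalytic subunit and dock it on receptors, were modestly higher. PIK3R1, encoding p85 alpha, was at 8.21, 8.14 and 8.22 in parental cells and 8.52, 8.64 and 8.61 in WZR6. This rise of 0.40 ± 0.05 (SE, adjusted p = 0.00102) was matched by its second probe set at 0.41, while another, near the lower quartile, differed by 0.18 and was not called. PIK3R3, encoding p55 gamma, rose by 0.23 ± 0.07 (adjusted p = 0.0305), from 9.12, 9.13 and 9.20 to 9.48, 9.26 and 9.42. That call ended without parental replicate 1 or 2 or WZR6 replicate 1 or 3 (differences 0.22, 0.22, 0.19 and 0.22), with cyclic loess (0.19), with values below the overall median raised to it, a floor (adjusted p = 0.0684) and as the mean of its probe sets (0.08). The other PIK3R3 probe set differed by -0.07.

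The class II and III kinases, which make PI3P and PI(3,4)P2 for endosomal traffic and autophagy, moved in both directions. PIK3C3, the catalytic subunit VPS34, rose from 10.02, 10.22 and 10.11 to 10.60, 10.59 and 10.60, a difference of 0.48 ± 0.06 (SE, adjusted p = 0.000762). The WZR6 arrays lay almost on the same value, above all parental arrays; a second, dim probe set of PIK3C3 differed by -0.07, so that the mean of both gave 0.21. PIK3C2A, of class II, rose by 0.48 ± 0.11 (adjusted p = 0.0112), from 10.88, 10.64 and 11.03 to 11.23, 11.29 and 11.48, although the call ended with the floor (adjusted p = 0.0554). PIK3R4, the VPS15 partner of VPS34, fell by 0.22 on the log2 scale, from 10.24, 10.36 and 10.35 to 10.09, 10.09 and 10.12 (adjusted p = 0.0145). The PIK3R4 call ended without parental replicate 2 (-0.19, adjusted p = 0.0501), without WZR6 replicate 1 (-0.21, adjusted p = 0.0511) and as the mean of its 3 probe sets (-0.06), of which 2 were dim. PIK3C2B differed by -0.08 (95% interval -0.25 to 0.08).

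Of the lipid phosphatases that take phosphate off PI3K products, INPP4B showed the largest change of all members. INPP4B removes the 4-phosphate of PI(3,4)P2 and is known as a brake on AKT in epithelial tumours. Its 1 probe set read 8.67, 8.74 and 8.86 in parental cells and 9.80, 9.71 and 9.82 in WZR6. The groups were far apart relative to their spread, at 1.02 ± 0.07 (SE), or 2.03-fold (1.83 to 2.26, adjusted p = 3.39e-05). Its relative INPP4A was not called on the main probe set (0.17, 95% interval -0.03 to 0.37), and 1 of its 3 other probe sets was called lower, at -0.27, so the INPP4A probe sets do not run the same way. The 5-phosphatases INPPL1 (SHIP2) and INPP5D (SHIP1, a leukocyte enzyme) differed by 0.10 (-0.02 to 0.22) and 0.13 (-0.09 to 0.36) and were not called; INPP5D was dim, at means of 5.30 and 5.44.

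AKT1, the kinase at the centre of the pathway, fell. Its 1 probe set read 9.23, 9.27 and 9.23 in parental cells and 8.60, 8.64 and 8.69 in WZR6, a difference of -0.60 ± 0.05 (SE), or 1.52-fold lower (1.40 to 1.64, adjusted p = 8.95e-05). AKT2 was dim on all 3 of its probe sets; the brightest had means of 5.84 and 5.80 and differed by -0.04 (-0.19 to 0.12). PHLPP2, a phosphatase that inactivates AKT, fell from 8.69, 8.69 and 8.65 to 8.30, 8.31 and 8.22, by 0.40 on the log2 scale (adjusted p = 0.000604), but its dimmer probe set differed by 0.13 and the mean of both by -0.13. PHLPP1 differed by 0.08 (-0.09 to 0.25). PDPK1, the kinase that activates AKT, was not called on its main probe set (-0.10, 95% interval -0.28 to 0.08), while a nearly equally bright one was called lower, at -0.30 ± 0.07 (adjusted p = 0.0116).

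**Figure D2:**
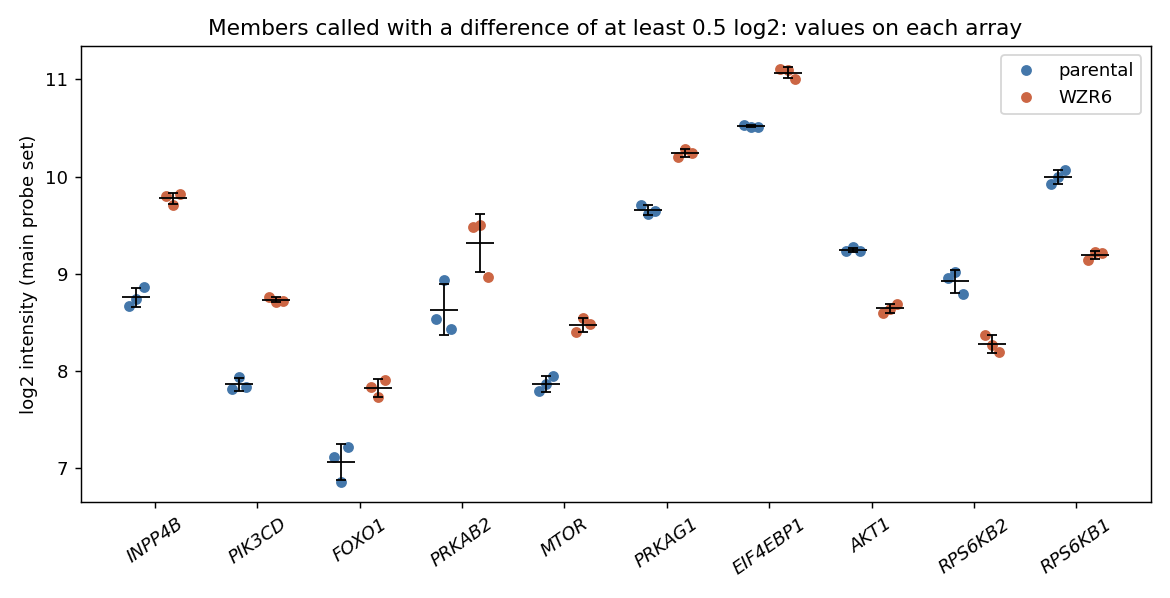
Log2 intensity (y axis) on each array for the 10 members called with a difference of at least 0.5 log2, ordered from the largest increase to the largest decrease; coloured points are arrays, horizontal marks group means and bars 1 SD (n = 3). In all 10 the parental and WZR6 arrays do not overlap, and PRKAB2 has the widest spread, with SDs of 0.26 and 0.30.

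Within the mTOR complexes the kinase itself and an inhibitor rose. MTOR read 7.79, 7.86 and 7.95 in parental cells and 8.40, 8.54 and 8.48 in WZR6. All WZR6 arrays were higher, by 0.61 ± 0.06 (SE) or 1.52-fold (1.37 to 1.69, adjusted p = 0.000277); a dimmer probe set differed by 0.25 and was not called. DEPTOR, an inhibitory partner of mTOR, rose by 0.31 ± 0.05, from 9.31, 9.39 and 9.32 to 9.65, 9.70 and 9.62 (adjusted p = 0.00214). MLST8, a subunit of both complexes, fell by 0.18 on the log2 scale, from 8.79, 8.73 and 8.72 to 8.62, 8.54 and 8.53 (adjusted p = 0.0244). The MLST8 call ended with median centring (-0.14) and without parental replicate 1 (-0.16) or 2 (-0.19) or WZR6 replicate 2 or 3 (-0.17 each).

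The switch above mTOR complex 1 showed no call. TSC1 and TSC2, which together turn RHEB off, differed by 0.14 (95% interval 0.02 to 0.26, adjusted p = 0.0651) and -0.13 (-0.33 to 0.07). TSC1 was called in 7 of 17 alternatives, with an adjusted p down to 0.0174. RHEB, the GTPase that activates mTOR complex 1, had the brightest main probe set, with means of 13.37 and 13.27, and differed by -0.10 (-0.21 to 0.02). That probe set is of the _x_at kind, whose probes can match more than 1 transcript. The 4 other RHEB probe sets, with parental means from 5.80 to 12.13, differed by -0.19 to 0.11, with no call. RHEB was called with an intensity trend and robust variance alone (adjusted p = 0.0134).

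Among the outputs of AKT and mTOR 5 of 6 genes were called, SGK1 among them with a call that did not hold in every alternative, beside 46.0% of all genes. RPS6KB1, which encodes S6 kinase 1, read 9.92, 10 and 10.07 in parental cells and 9.14, 9.22 and 9.21 in WZR6, 1.75-fold lower (1.59 to 1.92, difference -0.81 ± 0.06 SE, adjusted p = 5.23e-05). Its second probe set fell in the same way, by 0.87 on the log2 scale. RPS6KB2, which encodes S6 kinase 2, fell from 8.96, 9.02 and 8.79 to 8.37, 8.27 and 8.19, or 1.56-fold (1.37 to 1.78, adjusted p = 0.000624). EIF4EBP1, encoding the translation repressor 4E-BP1, rose instead, from 10.53, 10.51 and 10.51 to 11.11, 11.10 and 11.00, or 1.47-fold (1.35 to 1.59, adjusted p = 0.000161). The S6 kinase genes and the 4E-BP1 gene thus changed in opposite directions, with no overlap between the groups for any of these 3 genes.

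FOXO1, a transcription factor that AKT keeps out of the nucleus, rose from 7.11, 6.86 and 7.22 to 7.83, 7.73 and 7.91, by 0.76 ± 0.10 (SE) or 1.70-fold (1.44 to 1.99, adjusted p = 0.000813). Its second probe set rose by 0.82, and with the floor, which lies above the parental values, the difference was 0.44. FOXO3 differed by 0.00 (-0.18 to 0.18) on its own probe set, and 3 probe sets annotated to FOXO3B as well differed by 0.07 to 0.22 with no call. SGK1, an AKT-related kinase, rose by 0.18 ± 0.05 (adjusted p = 0.0296), from 11.10, 11.14 and 11.18 to 11.27, 11.31 and 11.39. The SGK1 call ended without parental replicate 1 (0.16) or 2 (0.18) and without WZR6 replicate 2 (0.19) or 3 (0.15).

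AMPK is built from a catalytic, a scaffolding and a regulatory subunit, and a gene of each kind rose. PRKAG2, a gamma subunit gene on a list below, fell by 0.56 on the log2 scale (-0.32 as the mean of its probe sets). PRKAG1, a regulatory gamma subunit, rose from 9.71, 9.61 and 9.65 to 10.20, 10.28 and 10.24, by 0.58 ± 0.05 (SE) or 1.5-fold (1.38 to 1.63, adjusted p = 0.000141). PRKAB2, a scaffolding beta subunit, rose from 8.53, 8.93 and 8.43 to 9.48, 9.50 and 8.97, by 0.69 ± 0.18 (adjusted p = 0.0193). Its lowest WZR6 array was only just above its highest parental array, and the call ended without parental replicate 1 (0.64) or 3 (0.59), without WZR6 replicate 1 (0.61) or 2 (0.60) and with the floor (adjusted p = 0.0925). PRKAA1, the catalytic alpha subunit, rose by 0.18 ± 0.05 (adjusted p = 0.0291), from 9, 9.10 and 9.07 to 9.25, 9.26 and 9.20, and its second, dimmer probe set by 0.37. The PRKAA1 call ended without parental replicate 1 (0.15) or 3 (0.19), without WZR6 replicate 1 or 2 (0.17 each), with cyclic loess (0.14) and with the replicate number as a block (adjusted p = 0.0504). PRKAB1, the other beta subunit, differed by 0.11 (-0.01 to 0.22) and STK11, encoding the AMPK-activating kinase LKB1, by 0.11 (-0.06 to 0.27), and neither was called.

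Related genes were also set against each other within each array, by their main probe sets. The change in log2 ratio between the groups was 0.85 for INPP4B over INPP4A, -0.76 for FOXO3 over FOXO1 (-0.45 with the floor), -0.48 for PHLPP2 over PHLPP1 and -0.27 for TSC2 over TSC1. The PHLPP2 value rests on the probe set that fell, since its other probe set differed by 0.13. The ratio of AKT2 to AKT1 changed by 0.56, but AKT2 was dim, and this value mostly restates the difference of -0.60 in AKT1. In these 5 of 8 pairs the groups did not overlap. Each had an exact permutation p of 0.10 (two-sided), the smallest that 3 against 3 arrays allow, and 0.16 after adjustment over the 8 pairs. For PRKAB2 over PRKAB1 (0.58), PIK3R3 over PIK3R1 (-0.17) and RPS6KB2 over RPS6KB1 (0.16) the groups overlapped (exact permutation p = 0.20, 0.20 and 0.40).

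Most calls lay on bright probe sets. Of the 68 member probe sets 26 were called, or 38.2%, beside 41.1% of all probe sets: 17 rose (21.6% of all probe sets) and 9 fell (19.5%), and 0 of the 14 with a mean below the lower quartile was called, beside 9.30% of all such probe sets. From the quartile to the median of all values (7.38), 3 of 16 were called (28.4% of all), and above it 23 of 38, or 60.5% (63.2% of all). In each range of brightness the members' share was below that of all probe sets. Of 22 members with several probe sets, 10 were called on the main one. In 4 of these, PIK3R1, FOXO1, RPS6KB1 and PRKAA1, another probe set was called the same way, and in the other 6 no other was called.

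**Figure D3:**
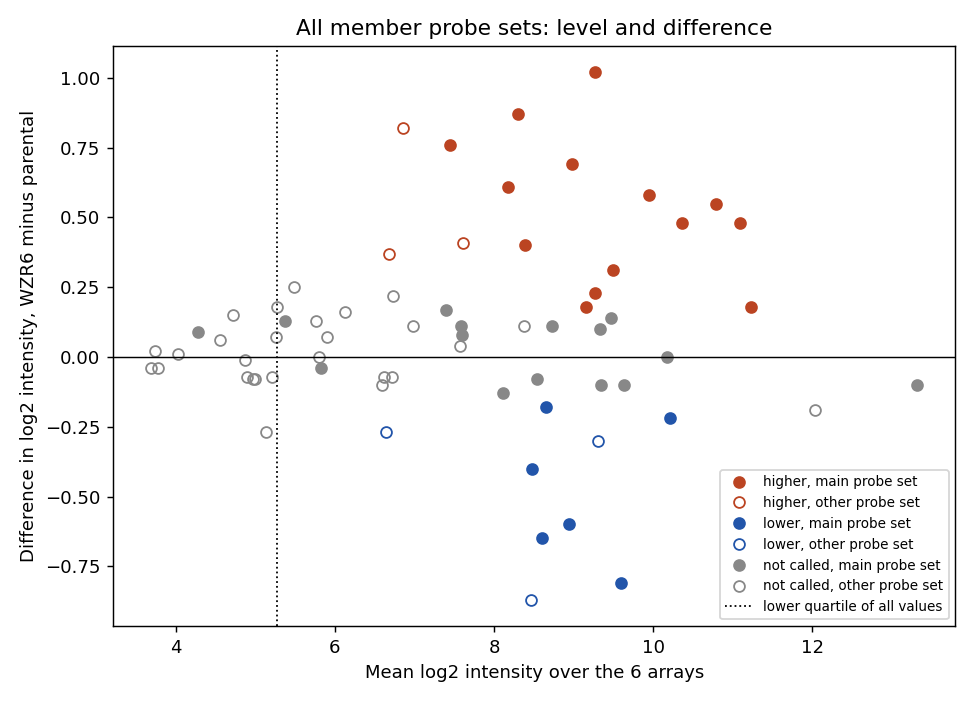
Mean log2 intensity over the 6 arrays (x axis) and difference between WZR6 and parental cells (y axis) for the 68 member probe sets; filled points are the main probe set of a gene and open points its other probe sets, coloured by call. No probe set left of the dotted line, the lower quartile of 5.27, was called.

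Several members moved in the direction of the genes around them. For each, the median difference of the 20 measured genes on either side in the RefSeq gene order was taken. It was at or beyond 0.3 in size for 7 of 35 members (20%), beside 7.16% of all genes. RPS6KB2 (-0.65) fell by as much as its neighbours, whose median was -0.64 with 30 of 40 lower, and RPS6KB1 (-0.81) fell with neighbours at -0.35 (23 of 40 lower). PIK3CD (0.87) and MTOR (0.61) share 25 of their 40 neighbours, with medians of 0.36 and 0.33. PIK3R3 (0.23) lay in a stretch with a median of 0.39, PIK3R4 (-0.22) in one at -0.38, and PIK3CB (-0.10) in one at -0.32. The neighbours of INPP4B, FOXO1, PRKAB2, PRKAG1, EIF4EBP1 and AKT1 had medians of 0.17, 0.19, 0.06, 0.02, 0.16 and -0.18, each smaller in size than the gene's own difference. That was also so for RPS6KB1, PIK3CD and MTOR. Around INPP4B, FOXO1 and EIF4EBP1, 18, 19 and 16 of 40 neighbours were higher and 2, 3 and 1 lower. Around AKT1 18 of 40 were lower and 2 higher. Of all genes 23.3% rose and 22.7% fell. The part of the surrounding stretch in these values was not tested.

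**Figure D4:**
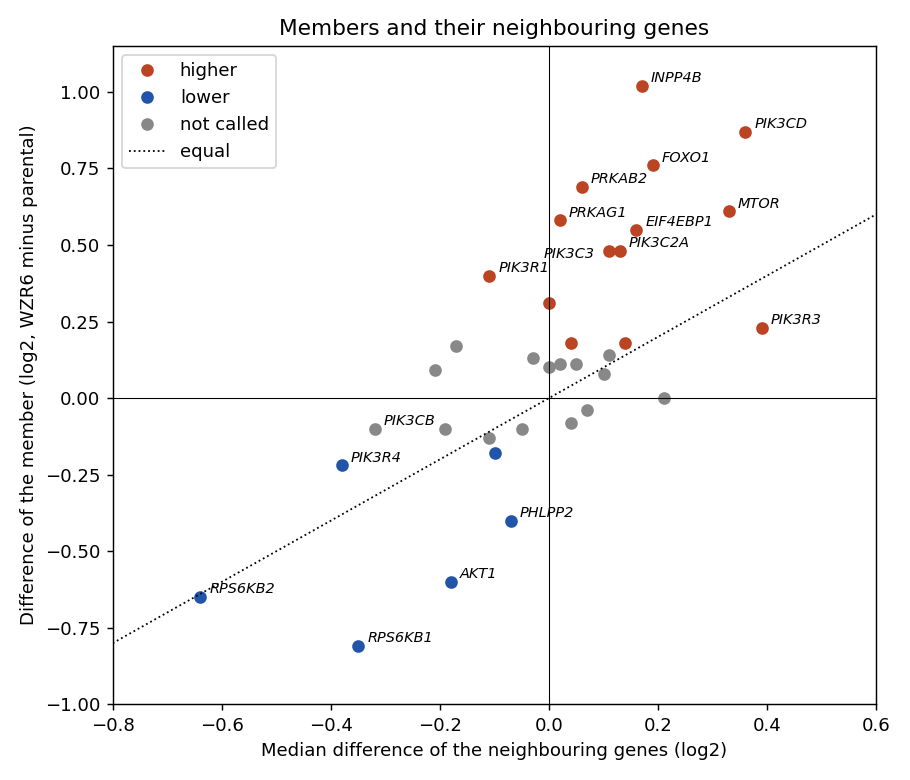
Difference of each of the 35 members (y axis, log2, WZR6 minus parental) against the median difference of up to 40 neighbouring measured genes (x axis, log2); colours give the call and the dotted line marks equal values. RPS6KB2 lies on the line, while INPP4B, PRKAB2 and PRKAG1 rose among neighbours whose medians lay between 0.02 and 0.17.

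Other genes of the pathway were read from 6 lists, on which 89 of 113 genes were measured; 22 rose, 29 fell and 38 were not called. The called share, 57.3%, equals that of the members to within 1 percentage point and stands beside 46.0% of all genes. Few of the listed genes were dim, with 5 of 89 having a group mean below the lower quartile, against 2530 of 11963 genes. The adaptors and inhibitors on the receptor side of PI3K gave 0 increases and 5 decreases among 8 genes, with a median of -0.30 (0.02 over all genes). Of all genes 23.3% rose and 22.7% fell. IRS1 and IRS2, which carry insulin and IGF receptor signals to PI3K, fell by 1.30 and 0.39 on the log2 scale (adjusted p = 3.37e-05 and 0.0036). GRB10, an adaptor that restrains those receptors, fell by 0.85, among neighbours with a median of -0.45, and by 0.43 as the mean of its probe sets. The adaptor GAB2 fell by 0.43, a call that ended with the floor (-0.25). PIK3IP1 fell by 0.21, a call that ended in 9 of 17 alternatives, and differed by -0.05 as the mean of its probe sets. With the floor or without _x_at and _s_at probe sets 3 genes of the list fell.

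The remaining phosphoinositide kinases and phosphatases split into 6 higher, 7 lower and 9 not called of 22, with a median of 0.03. The called share was 59.1%, beside 46.0% of all genes. The 4 largest changes were all decreases, and they concerned enzymes of several kinds. SYNJ2, the 5-phosphatase synaptojanin 2, fell by 0.79 (by 0.38 as the mean of its probe sets). The kinases PIP4K2C and PI4K2A fell by 0.66 and 0.59, and INPP1, which acts on soluble inositol phosphates, by 0.64. Without _x_at and _s_at probe sets 2 genes of this list rose.

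Among genes of amino acid sensing and mTOR assembly 7 of 22 rose, 6 fell and 9 were not called (median 0.04). Thus 59.1% were called, beside 46.0% of all genes. The Rag GTPases, which bring mTOR complex 1 to the lysosome, were divided: RRAGC and RRAGB rose by 0.68 and 0.52, and RRAGD fell by 0.65. The RRAGD difference was -0.15 with the floor, and RRAGC lay among neighbours with a median of 0.32. MIOS, a subunit of the GATOR2 complex that relays amino acid sufficiency, fell by 0.58 among neighbours with a median of -0.53. Without _x_at and _s_at probe sets 3 genes of this list rose and 3 fell.

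Of 8 translation and lysosomal outputs of mTOR complex 1, 3 rose and 2 fell (median 0.05), or 62.5% called beside 46.0% of all genes. Without parental replicate 1 the number that rose was 1. EIF4EBP2, a relative of EIF4EBP1, fell by 0.59, opposite to EIF4EBP1, and by 0.36 as the mean of its probe sets, but differed by -0.13 with no call after _x_at and _s_at probe sets had been dropped. The lysosomal transcription factor TFEB rose by 0.44 (adjusted p = 0.000828). ULK1, the autophagy-starting kinase, rose by 0.43, a call that ended with the floor (adjusted p = 0.0647) and without parental replicate 1 (0.38). EIF4B, an S6 kinase substrate, fell by 0.27, and its difference as the mean of its probe sets was -0.10, with no call. The list had 1 decrease under either of those probe set choices.

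The list of AKT and FOXO substrates and targets also holds genes that act on AKT, such as PPP2R1A and PPP2CA. It gave 3 increases and 4 decreases among 15 genes (median 0.03), so that 46.7% were called, near the 46.0% of all genes. Without WZR6 replicate 1 or without _x_at and _s_at probe sets it gave 2 decreases. PPP2R1A and PPP2CA, the scaffold and catalytic subunits of the phosphatase PP2A, which dephosphorylates AKT, fell by 0.47 and 0.36. TBC1D4, an AKT substrate in glucose transport, and BCL6, a FOXO target gene, rose by 0.36 and 0.32. Among activators, relatives and targets of AMPK 3 of 14 rose and 5 fell (median -0.05), or 57.1% called beside 46.0% of all genes. The AMPK-related kinases NUAK1 and SIK2 rose by 0.64 and 0.54, while PFKFB3, a regulator of glycolysis, fell by 0.63 and the gamma subunit gene PRKAG2 by 0.56. PRKAG2 and SIK2 were not called without _x_at and _s_at probe sets, at -0.09 and 0.23, where 1 gene of this list rose and 3 fell, and PRKAG2 differed by -0.32 as the mean of its probe sets. The lists were drawn up with earlier results of these data known, and none of these counts was tested as a set.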

How the data were processed

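Total RNA of 6 samples was hybridised to oligonucleotide arrays, 1 per sample, and groups were taken from the sample titles. The authors deposited linear intensity values, 1 for each probe set on each array. RMA is the method that the submitters' processing notes name, and the sources used here give no version, settings or detection calls. Values were converted to log2 without a pseudocount and not normalized again. After 62 control probe sets were left out, 22215 were tested in R 4.3.3 with the lmFit and eBayes functions of limma 3.58.1 (two-sided, Benjamini-Hochberg over all of them). Of these, 19064 name 1 gene, 1043 several and 2108 none; 11963 genes have a probe set of their own, and 11954 have an Entrez number found in RefSeq's GRCh38.p14 table. The brightest probe set naming a gene alone, by its mean over the 6 arrays, stood for that gene. Promoter sequences are RefSeq's. The members, lists and tests were chosen with earlier results of these data known. All members are named; those called at 0.5 log2 or more without overlap, and in each list up to 4 called genes with the largest difference, have fuller values. Array values of other called members were added after their values were seen. Alternatives were cyclic loess, median centring, quantile normalization, 2 filters on dim probe sets, a floor, an intensity trend with robust variance, a replicate block, a gene-level fit, averaging the probe sets of a gene, dropping _x_at and _s_at probe sets, whose probes can match more than 1 transcript, and dropping each array in turn. A member not called under either setting counts as the same whatever its sign. On simulated data with the means and spread of these 22215 probe sets, 56 of 100 probe sets changed by 0.5 log2 and 94 of 100 changed by 1 log2 were called. Only these probe sets were changed, whereas 9131 (41.1%) were called in the data. The Benjamini-Hochberg cut was therefore stricter in the simulation, and these shares do not measure the power of the real comparison. Precision is limited by having 3 arrays in a group. Plots used Python 3.11.15 and matplotlib 3.10.9.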

Additional observations from a re-analysis of the deposited data

How the results depend on the processing

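Over 17 alternatives no called member changed direction. Of 20 called members 13 kept their call in each alternative that gave a value, and 7, PIK3C2A, PIK3R3, PIK3R4, MLST8, SGK1, PRKAA1 and PRKAB2, lost it in at least 1. Of 15 members not called, 12 were called in none and TSC1, RHEB and PRKAB1 in some. AKT1, RPS6KB2, MLST8, FOXO1, FOXO3, INPPL1 and INPP5D have no value without _x_at and _s_at probe sets, because all of their probe sets are of those kinds. Under that setting 3 member genes and 4 member probe sets were lower, and 11 genes of the 6 lists were higher and 19 lower. Leaving out 1 array gave 10 to 12 member genes higher and 4 to 6 lower, 12 to 15 member probe sets higher and 7 to 9 lower, and 19 to 21 genes of the lists higher and 24 to 29 lower. With the replicate block 13 member genes were higher and 6 lower, PRKAA1 being lost. Deviations of same-numbered arrays correlated at -0.012, 0.115 and 0.226, not all over 0.1, so the numbers were not taken to pair the samples. Median centring and cyclic loess put the median of all genes at 0.06 and -0.01, and 15 and 12 member genes rose under them. The change in FOXO3 over FOXO1 was -0.45 with the floor. Without detection calls, signal over background is not known for dim members such as PIK3CG, whose means lay below the lower quartile in both groups.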
